A study of Mus musculus with 16 samples.

Results

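Mouse embryonic fibroblasts that lack Hmgb1 were compared between cells synchronised in S phase and asynchronously cycling cells. The comparison used every array with one of these labels in the knockout genotype, 2 KO_S and 3 KO_cycling arrays, which is 5 of the 16 arrays of the series. All of these fibroblasts were Hmgb1-/- (KO) throughout the embryo and carried no other allele named in the labels. They were isolated from embryos of Hmgb1+/- parents, with 3 mothers in the study, and RNA was taken after at most passage 3. No drug or other agent is named, and how the cells were synchronised is not given in the sources used here. The remaining arrays held 3 KO_G1 arrays of G1-synchronised knockout cells and the matching wild-type (Wt) groups of 3 cycling, 3 G1 and 2 S arrays. Each array was an Illumina bead array hybridised with biotinylated cRNA. The labels call the replicates biological and give S in duplicate. Whether the 2 KO_S arrays came from different embryos is not stated, so the p-values cannot be read as measuring spread between embryos. They rest on a spread within groups pooled over all 16 arrays, not on that of the 5 compared arrays alone. The median standard deviation of a probe, on the log2 scale, was 0.09 in KO_S and 0.17 in KO_cycling. In the other groups it ran from 0.09 (Wt_S) to 0.47 (KO_G1).

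Hmgb1 encodes an abundant nuclear protein that bends DNA and, outside the cell, acts as an inflammatory signal. Fibroblasts lay down and remodel the extracellular matrix, and their gene expression shifts with growth state: proliferating cultures carry the transcripts of replication and mitosis, while arrested cultures accumulate matrix and secreted products. In S phase, cells copy their DNA, transcripts of replication enzymes and replication-dependent histones are abundant, and most mitotic transcripts have yet to reach their peak. An asynchronous culture is a mixture of all phases. In bulk RNA, fewer cells of a type and less RNA per cell cannot be told apart.

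Mean intensity ran from 718 to 776 on the KO_cycling arrays and from 580 to 654 on the KO_S arrays, with 10962 to 11488 and 11715 to 11902 probes detected (detection p under 0.01). The KO_cycling arrays lay on slide 1 and the KO_S arrays on slide 2, so within these 5 arrays slide and phase cannot be told apart. No slide held both groups, and no within-slide value exists. A slide term could be fitted only through the G1 arrays, which lay on both slides. Replicate 3 of Wt_G1 and of KO_G1 lay on slide 1, and replicates 1 and 2 of each on slide 2. The slide term therefore cannot be told apart from a difference of replicate 3, and KO_G1 replicate 1 entered it. The S arrays correlated at 0.994 with each other, the cycling arrays at 0.977 to 0.991, and arrays of different groups at 0.956 to 0.970. Outside the comparison, Wt_cycling replicate 3 and KO_G1 replicate 1 stood apart from their groups, with lowest within-group correlations of 0.941 and 0.881, and all 16 arrays share 1 estimate of spread. KO_cycling replicate 3 also differed from the other 4 arrays in sex-linked transcripts, with Xist at 7.29 against 4.50 to 5.19 and the Y-linked gene Eif2s3y at 4.39 against 11.24 to 11.66 on the log2 scale. The Hmgb1 probe read 4.81, 4.72 and 4.75 in cycling and 4.91 and 4.59 in S, not above background on any of these arrays. It was not detected on any Wt_cycling or Wt_S array either (4.57 to 5.29), so it could not check the genotype.

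Fibroblast identity was clear on all 5 arrays, where 13 of 14 fibroblast markers with a probe were detected, Lum being the exception. No epithelial marker of 12 was detected on all 5 arrays. Of 12 endothelial markers, 4 were detected on all 5 arrays, namely Flt1, Emcn, Esam and Egfl7. Pecam1, Cdh5, Kdr, Tek, Tie1, Vwf and Robo4 were detected on none. Macrophage and leukocyte markers were present: 11 of 15 were detected on all 5 arrays, among them Cd14, Adgre1, Lyz2 and C1qa, and Itgam was detected on none. Their summed linear intensity was 9099.8 to 25155 in cycling cells, lowest in replicate 3, and 37281 to 40155 in S. None of these 13 tested marker genes was called, with a median difference of 1.10 on the log2 scale. That median was 0.29 to 1.27 when any 1 array was left out and turned to -0.33 with the slide term. The part of these cells in the results was not tested. Of neural, skeletal muscle, chondrocyte and osteoblast, adipocyte and erythroid markers, 5 of 12, 2 of 11, 2 of 11, 2 of 9 and 0 of 6 were detected on all 5 arrays. The adipocyte markers Fabp4, Adipoq and Plin1 were detected on none, while that list's summed intensity, mostly Lpl, was 892 to 1336 in cycling and 3172 to 3472 in S.

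Among 12078 probes tested with limma, 206 passed an adjusted p of 0.05 (a call), which is 1.71% of all. Of these, 136 were higher in S cells (1.13%) and 70 lower (0.58%), and they covered 112 and 64 named genes. The higher probes were 66.0% of the calls, and 86.6% of 82 calls with median scaling in place of quantile normalization. A change of at least 2-fold was reached by 120 of the higher and 52 of the lower probes. The S and cycling arrays did not overlap for any of the 206, as they did not for 6895 of all tested probes. The median difference over all probes was 0.02, and 1821 probes had an unadjusted p under 0.05. Without Wt_cycling replicate 3 and KO_G1 replicate 1, 2466 probes were called (20.4%; 9.7% higher and 10.7% lower), all 206 among them, with the same log2 differences. Leaving out a compared array lowered the count to 22 without KO_S replicate 1, 19 without KO_S replicate 2, 70 without KO_cycling replicate 1, 71 without replicate 2 and 86 without replicate 3. Where 1 KO_S array was left, it was assumed to vary like the other groups. With the slide term 20 of the 206 remained called, and all 206 kept their sign.

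**Figure D1:**
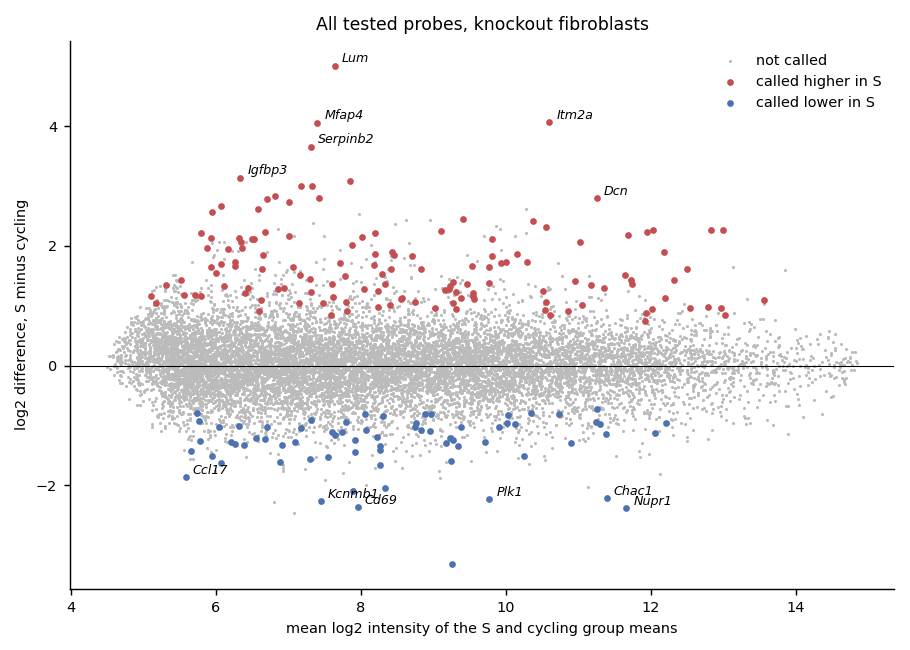
Log2 difference between KO_S and KO_cycling (vertical axis) against the mean of both group means on the log2 intensity scale (horizontal axis), 1 point for each of the 12078 tested probes. Red and blue points are the 136 called higher and the 70 called lower in S; Lum at 5.01 is the highest point.

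Genes of the extracellular matrix other than collagens held 4 of the called rises and no fall. Lum encodes lumican, a small leucine-rich proteoglycan that binds collagen fibrils. It read 4.95, 5.32 and 5.13 in cycling cells, where it was detected on no array, and 10.09 and 10.21 in S. Both S arrays lay far above all cycling arrays, and S was at least 25.4-fold higher (difference 5.01 ± 0.46, SE, adjusted p = 0.00011). With the slide term the difference was 4.23 (adjusted p = 0.0113). Mfap4, which encodes a microfibril glycoprotein of elastic fibres, read 4.74, 5.66 and 5.72 in cycling cells, detected on 2 of 3 arrays, and 9.51 and 9.34 in S. It rose by 4.05 ± 0.33 (adjusted p = 0.00011), and its cycling values lay near background. On the G1 arrays, Lum read 12.22, 11.34 and 11.22 and Mfap4 9.65, 9.83 and 9.69. Both genes thus lay above cycling in G1 as well as in S.

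Dcn encodes decorin, another small leucine-rich proteoglycan. Its brightest probe read 12.23, 12.28 and 11.09 in cycling cells and 14.17 and 14.10 in S. Cycling replicate 3 was the lowest and S was 2.27 ± 0.39 higher (adjusted p = 0.0104), with 2.79 ± 0.52 at its other probe (adjusted p = 0.0175). Prelp, a related proteoglycan that anchors basement membranes, read 10.86, 10.81 and 10.13 against 12.68 and 12.89, a rise of 2.19 ± 0.50 (adjusted p = 0.0435). For both, cycling replicate 3 was the lowest array, as it was for the macrophage markers. Of the 37 tested genes of this list, 32 had a positive difference, 21 lay higher in both S arrays than in any cycling array, and the median was 0.43. Over the 8428 genes tested, by 1 probe each, 1.2% were called higher and 0.641% lower, 29.7% lay higher without overlap, and the median was 0.01. In the fit without the 2 arrays that stand apart, 13 of the 37 were called higher and none lower, where 9.8% of all genes were called higher. The list mean was 9.47 to 9.65 on the cycling arrays, 10.25 to 10.28 on the S arrays and 10.33 to 10.83 on the G1 arrays.

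Col6a1 and Col6a2, 2 chains of the beaded-filament collagen VI, were the called members among 19 collagen genes, beside 1.2% of all genes called higher. Col6a2 read 8.62, 8.42 and 8.59 in cycling and 9.46 and 9.56 in S, a rise of 0.97 ± 0.19 (adjusted p = 0.0221). Col6a1 read 12.32, 12.57 and 12.59 against 13.38 and 13.52, a rise of 0.96 ± 0.22 (adjusted p = 0.0461). Its other probes were not called, at 0.56 ± 0.20 and 1.01 ± 0.29 (adjusted p = 0.189 and 0.108). The list's median was 0.36.

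Matrix-degrading enzymes and their inhibitors moved both ways. Timp3, a matrix-bound inhibitor of metalloproteinases, read 11.76, 11.70 and 11.65 in cycling and 14.05 and 13.87 in S. The S arrays stood clear of the tight cycling group, and Timp3 rose by 2.26 ± 0.23 (adjusted p = 0.000272), or 2.45 ± 0.37 at its other probe. Mmp3, the protease stromelysin, read 7.22, 7.15 and 6.91 against 9.22 and 9.39 and rose by 2.21 ± 0.25 (adjusted p = 0.000529). Its 2 dimmer probes rose by 1.95 ± 0.33 and 1.84 ± 0.33. Adamts4, which cleaves the proteoglycan aggrecan, fell: 9.97, 10.01 and 10.17 in cycling against 8.66 and 8.24 in S, a difference of -1.60 ± 0.37 (adjusted p = 0.0461). These were the 3 called genes of 15 tested, beside 1.2% of all genes called higher and 0.641% lower.

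**Figure D2:**
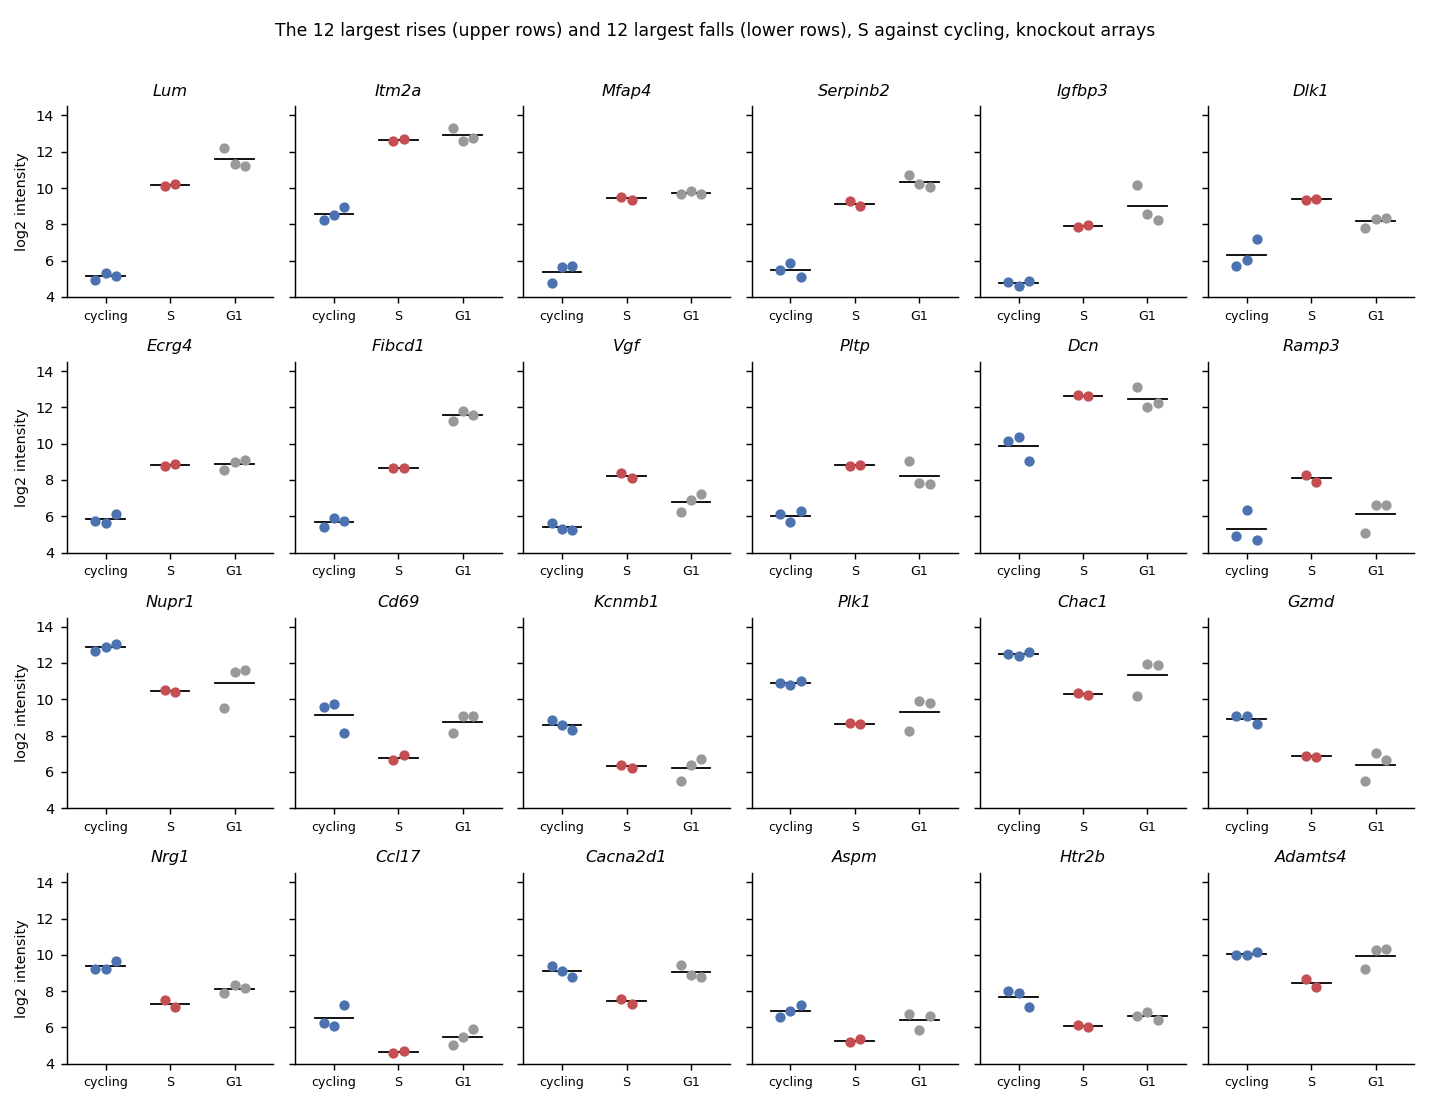
Log2 intensity of the 12 genes with the largest called rise (upper 2 rows) and the 12 with the largest called fall (lower 2 rows) on each knockout array: cycling (blue, 3 arrays), S (red, 2 arrays) and G1 (grey, 3 arrays, not part of the comparison), with a line at each group mean. The genes were chosen among called probes whose S and cycling points do not overlap, and G1 points of Fibcd1 lie well above those of S.

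Secreted growth regulators gave further calls. In the TGF-beta family, whose ligands signal through SMAD proteins, Inhba and Fst were called out of 26 genes. Both rose, where 1.2% of all genes were called higher. Inhba, the subunit of activin A, read 13.11, 12.93 and 13.02 in cycling and 14.09 and 14.15 in S (a rise of 1.10 ± 0.21, adjusted p = 0.0177). Fst encodes follistatin, which binds and neutralises activin. It read 8.88, 8.97 and 9.57 against 10.92 and 10.83 and rose by 1.73 ± 0.27 (adjusted p = 0.00542). The ligand subunit and its antagonist thus rose in the same samples. The list's median of 0.62 was the highest of the 30 lists described other than cell type markers, and 17 of the 26 genes lay higher in both S arrays than in any cycling array, beside 29.7% of all genes.

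The IGF system, in which binding proteins hold insulin-like growth factors outside the cell, had 3 called genes among 13, all of them binding proteins. Of all genes, 1.2% were called higher and 0.641% lower. Igfbp3 read 4.84, 4.61 and 4.86 in cycling cells, detected on no array, and 7.86 and 7.95 in S. It was at least 5.38-fold higher in S (3.14 ± 0.54, adjusted p = 0.0104). Igfbp4 read 10.81, 10.89 and 10.44 against 12.01 and 12.004 and rose by 1.29 ± 0.30 (adjusted p = 0.0473). Igfbp5 went the other way, from 11.03, 11.0035 and 11.0035 to 9.48 and 9.52, a difference of -1.52 ± 0.29 (adjusted p = 0.0175). In the G1 arrays, Igfbp5 read 11.09, 11.37 and 11.41. The list's median of 0.12 turned negative without cycling replicate 1 or 2, and was -0.07 at its lowest.

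Among 22 Wnt and Notch genes, 3 rose and 1 fell, beside 1.2% and 0.641% of all genes called higher and lower. Wnt2, a Wnt ligand, read 6.88, 6.63 and 7.31 in cycling and 8.99 and 9.20 in S (a rise of 2.16 ± 0.27, adjusted p = 0.000926). Sfrp1, a secreted protein that binds Wnt ligands, read 5.49, 5.05 and 6.13, detected on 2 of 3 cycling arrays, against 7.80 and 7.79, and rose by 2.24 ± 0.45 (adjusted p = 0.0248). The 2 Notch receptor genes called had opposite signs. Notch3 read 5.93, 6.27 and 6.46 against 7.62 and 7.39 and rose by 1.28 ± 0.25 (adjusted p = 0.0218). Notch4 read 8.47, 8.18 and 7.82 against 6.94 and 7.14, a difference of -1.12 ± 0.25 (adjusted p = 0.0390).

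The other genes with the largest rises encode membrane or secreted proteins. Itm2a, an integral membrane protein of developing cartilage and muscle, read 8.25, 8.52 and 8.93 in cycling and 12.59 and 12.69 in S, a rise of 4.07 ± 0.35 (16.8-fold, adjusted p = 0.00011). Serpinb2, an inhibitor of plasminogen activators, read 5.47, 5.88 and 5.11, detected on 2 of 3 cycling arrays, against 9.26 and 9.02 (3.65 ± 0.38, adjusted p = 0.000278). On the G1 arrays, Serpinb2 read 10.73, 10.20 and 10.07 and Itm2a 13.34, 12.60 and 12.76. Dlk1, an imprinted transmembrane regulator of adipocyte differentiation, read 5.70, 6.02 and 7.19 against 9.37 and 9.42 (3.09 ± 0.56, adjusted p = 0.0153). It was the called gene of 16 imprinted genes, beside 1.2% of all genes called higher, and cycling replicate 3 was its highest cycling array.

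Ecrg4, a secreted peptide precursor, read 5.76, 5.61 and 6.10 in cycling and 8.78 and 8.89 in S (3.01 ± 0.34, adjusted p = 0.000537). Fibcd1, a receptor for acetylated sugars such as chitin, read 5.39, 5.90 and 5.74 against 8.69 and 8.67 (3.00 ± 0.27, adjusted p = 0.00011). These 2 genes were tight in both groups and differed by about 8-fold (8.04 and 8.01). Vgf, a neuropeptide precursor, was detected on 1 of 3 cycling arrays at 5.61, 5.32 and 5.26 and read 8.36 and 8.11 in S (2.84 ± 0.32, adjusted p = 0.000529). Pltp, the phospholipid transfer protein of lipoproteins, read 6.10, 5.68 and 6.28 against 8.79 and 8.84 (2.79 ± 0.54, adjusted p = 0.0196). A dimmer Pltp probe was not called, at 0.52 ± 0.48 (adjusted p = 0.663). Ramp3, an accessory protein of the adrenomedullin receptor, read 4.89, 6.35 and 4.69, detected on 1 of 3, against 8.29 and 7.88 (2.78 ± 0.54, adjusted p = 0.0205). Cycling replicate 2 stood above the other 2 for Ramp3. The other Ramp3 probes gave 2.13 ± 0.34 (adjusted p = 0.00737) and 1.32 ± 0.31 (adjusted p = 0.0530, not called). Of the probes without a gene symbol, ILMN_1238547 rose by 1.89 ± 0.36 (adjusted p = 0.0186) and ILMN_2883164 by 1.51 ± 0.33 (adjusted p = 0.0368).

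Stress-response genes known as ATF4 targets gave 3 falls and 1 rise among 27 genes, beside 0.641% of all genes called lower and 1.2% higher. ATF4 is a transcription factor made when translation is slowed by amino acid shortage or by unfolded proteins, and it binds composite C/EBP-ATF elements in front of amino acid, tRNA synthetase and redox genes. This was 1 of 3 lists with 4 called members, the highest number of any list, and the one whose called members all had an entry in the RefSeq promoter table (GRCm38.p6). Their promoters, from 250 bases before to 50 bases after the transcription start, are printed on the gene's strand because these genes moved in the same comparison. Capitals mark matches to the composite element TGATGNAA on either strand, found in 3.97% of the 32851 promoters of the table.
Nupr1, chr7:126625421-126625720, minus strand: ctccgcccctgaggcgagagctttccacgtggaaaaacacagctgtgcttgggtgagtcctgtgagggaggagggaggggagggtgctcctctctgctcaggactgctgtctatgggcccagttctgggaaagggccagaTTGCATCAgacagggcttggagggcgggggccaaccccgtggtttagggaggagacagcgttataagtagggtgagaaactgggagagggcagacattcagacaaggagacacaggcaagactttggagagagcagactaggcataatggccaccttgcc
Chac1, chr2:119350992-119351291, plus strand: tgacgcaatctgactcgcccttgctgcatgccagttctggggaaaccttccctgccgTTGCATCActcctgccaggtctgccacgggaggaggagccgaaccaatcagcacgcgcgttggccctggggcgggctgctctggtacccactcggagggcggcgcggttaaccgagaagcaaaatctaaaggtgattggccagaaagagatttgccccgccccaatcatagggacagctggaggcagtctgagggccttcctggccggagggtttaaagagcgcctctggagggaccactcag
Mthfd2, chr6:83317555-83317854, minus strand: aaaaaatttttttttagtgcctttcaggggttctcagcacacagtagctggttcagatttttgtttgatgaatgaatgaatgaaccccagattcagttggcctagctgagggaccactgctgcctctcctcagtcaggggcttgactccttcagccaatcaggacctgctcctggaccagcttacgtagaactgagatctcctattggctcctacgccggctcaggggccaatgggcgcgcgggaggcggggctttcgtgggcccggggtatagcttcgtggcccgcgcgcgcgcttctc
Phgdh, chr3:98339920-98340219, minus strand: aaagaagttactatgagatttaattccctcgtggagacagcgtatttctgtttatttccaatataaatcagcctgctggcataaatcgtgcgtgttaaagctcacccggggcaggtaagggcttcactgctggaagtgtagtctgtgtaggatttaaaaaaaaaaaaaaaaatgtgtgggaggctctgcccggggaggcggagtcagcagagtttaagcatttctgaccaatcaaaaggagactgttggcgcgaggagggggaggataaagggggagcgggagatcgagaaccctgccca
Nupr1 and Chac1 each held 1 match, whose first base lies at -110 and -193 from the start site, and the Mthfd2 and Phgdh windows held none. A match is a description of the letters and not of binding.

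Nupr1, a stress-induced nuclear protein, read 12.65, 12.89 and 13.04 in cycling and 10.53 and 10.41 in S. Both S arrays lay below all cycling arrays, with a difference of -2.39 ± 0.56 (5.23-fold, adjusted p = 0.0499, just under the threshold). Chac1, an enzyme that degrades glutathione, read 12.49, 12.40 and 12.62 against 10.32 and 10.25, a difference of -2.22 ± 0.40 (4.65-fold, adjusted p = 0.0144). Mthfd2, a mitochondrial folate enzyme, read 9.54, 9.34 and 9.64 against 8.47 and 8.36 (-1.09 ± 0.26, adjusted p = 0.0484). Phgdh, the first enzyme of serine synthesis, rose instead, from 8.86, 8.92 and 8.32 to 10.15 and 9.71 (1.23 ± 0.25, adjusted p = 0.0269). Of 27 tested genes, 21 had a negative difference, 18 lay lower in both S arrays than in any cycling array, against 29.2% of all genes, and the median was -0.43. Without the 2 arrays that stand apart, 13 were called lower and 2 higher, beside 11.7% and 9.8% of all genes. Herpud1, which helps clear misfolded proteins from the endoplasmic reticulum, was the called gene of 27 heat shock and chaperone genes. It read 12.75, 12.62 and 12.71 against 11.65 and 11.81 (-0.96 ± 0.21, adjusted p = 0.0374). Its dimmer probe was not called, at -0.88 ± 0.21 (adjusted p = 0.0530). With all 16 arrays, 0.641% of all genes were called lower.

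Mitotic transcripts lay lower in S than in cycling cells, and 2 of them passed the test. Plk1, a kinase that drives entry into and exit from mitosis, read 10.88, 10.79 and 10.995 in cycling and 8.69 and 8.62 in S, a difference of -2.24 ± 0.47 (4.71-fold, adjusted p = 0.0286). Bub1b, a spindle checkpoint kinase, read 7.09, 6.91 and 7.15 against 5.64 and 5.81 (-1.32 ± 0.31, adjusted p = 0.0494). These were the 2 called genes of 29 in the G2/M list, beside 0.641% of all genes called lower. Aspm, a spindle pole protein outside that list, read 6.57, 6.88 and 7.22 against 5.18 and 5.34, detected on 1 of 2 S arrays (-1.63 ± 0.32, adjusted p = 0.0246). The difference was negative for 28 of the 29 listed genes, 25 lay lower in both S arrays than in any cycling array (29.2% of all genes), and the median was -0.65. Without the 2 arrays that stand apart, 11 were called lower and 1 higher, beside 11.7% and 9.8% of all genes. The mean of the list was 8.83 to 9.12 on the cycling arrays, 8.15 to 8.20 on the S arrays and 7.52 to 8.14 on the G1 arrays.

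Transcripts of G1/S transition and DNA replication differed less. None of 40 tested genes was called, and the median was -0.18. The largest differences were those of Pold1, the catalytic subunit of DNA polymerase delta (-1.38 ± 0.35, adjusted p = 0.0646), the origin licensing factor Cdt1 (-0.94 ± 0.26, adjusted p = 0.0927), the clamp loader subunit Rfc4 (-0.87 ± 0.29, adjusted p = 0.163) and the chromatin assembly subunit Chaf1b (-0.83 ± 0.27, adjusted p = 0.148). Without the 2 arrays that stand apart, 9 genes were called lower and none higher, beside 11.7% and 9.8% of all genes. The helicase subunits Mcm2 and Mcm5 had differences of -0.31 ± 0.24 and -0.21 ± 0.18, thymidine kinase Tk1 -0.56 ± 0.32, the ribonucleotide reductase subunit Rrm2 -0.16 ± 0.37 and the sliding clamp Pcna 0.34 ± 0.32, all with adjusted p of at least 0.455. The list mean was 8.59 to 8.71 on the cycling arrays, 8.39 to 8.40 on the S arrays and 7.39 to 7.84 on the G1 arrays, so S lay between the other groups. Mcm5, for example, read 10.21 and 10.28 in S, 10.42 to 10.50 in cycling and 9.26 to 9.34 in G1.

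Cyclins and their inhibitors gave no call at their brightest probes among 11 genes. Ccnd1, the D cyclin of growth factor response, read 12.35, 12.50 and 12.11 in cycling and 13.11 and 12.94 in S (0.71 ± 0.23, adjusted p = 0.156). Cdkn1a, the p21 inhibitor, read 13.23, 13.16 and 13.11 against 13.91 and 13.97 (0.77 ± 0.19, adjusted p = 0.0582). A dimmer Cdkn1a probe, ILMN_2846776, was called, at 1.25 ± 0.20 (adjusted p = 0.00590), and the third gave 0.67 ± 0.23. Cdkn1c was at 0.80 ± 0.51 and the G1 cyclins Ccne1 and Ccne2 at 0.03 ± 0.43 and 0.27 ± 0.28. Ccna2 and Cdkn1b were detected on 1 of the 5 arrays each and were not tested. The kinase gene Cdk1 and the transcription factor gene E2f1 were at -0.33 ± 0.45 and -0.28 ± 0.23. The median of the cyclin and inhibitor list, 0.22, turned to -0.09 with the slide term. Among 12 E2F and pocket protein genes none was called, with E2f3 at -0.73, Mybl2 at -0.58, E2f4 at 0.34 and E2f5 at -0.30.

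Core and linker histone genes, whose transcripts are bound to S phase, were not higher as a list in the S arrays in the fit without a slide term. None of 38 was called, the median was -0.30, and 18 lay lower in both S arrays than in any cycling array, beside 29.2% of all genes. H2ac22 read 11.13, 11 and 11.30 in cycling and 9.56 and 9.42 in S (-1.65 ± 0.80, adjusted p = 0.360). The other largest differences were also of H2A genes, H2ac10 at -1.59, H2ac11 at -1.53 and H2ac21 at -1.22. Histone genes are near-identical to each other, so their probes may share targets. Whether these probes follow the histone transcripts made in S phase was not tested. With the slide term the median turned to 0.32, and without the 2 arrays that stand apart it was -0.05 with that term. The sign of this median therefore depended on how the slide was treated.

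**Figure D3:**
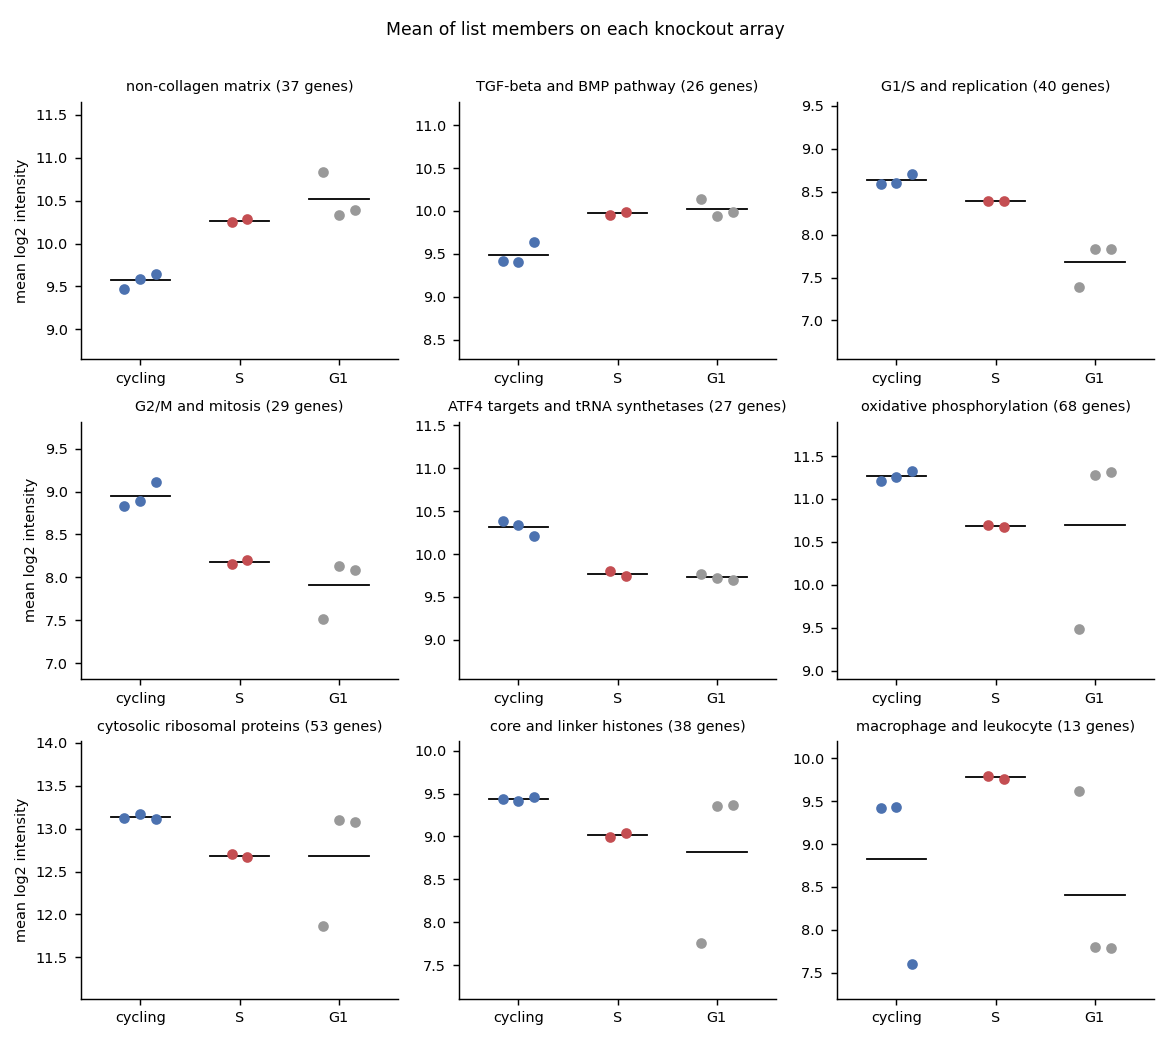
Mean log2 intensity of the tested genes of 9 lists on each knockout array: cycling (blue, 3), S (red, 2) and G1 (grey, 3, not part of the comparison), with a line at the group mean; every panel spans 3 log2 units. Cycling replicate 3 lies at 7.60 for macrophage and leukocyte markers, far below the other 2 cycling arrays, and 1 G1 array lies apart in the oxidative phosphorylation, ribosomal protein and histone panels.

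Subunits of the respiratory chain and ATP synthase lay lower in S as a group without any call. None of 68 oxidative phosphorylation genes was called, the median was -0.57, and 59 were negative. In 54 of 68 both S arrays lay below every cycling array, beside 29.2% of all genes. The largest differences were in the complex I genes Ndufb2 (-1.72 ± 0.89), Ndufs6 (-1.51 ± 0.73) and Ndufb10 (-1.44 ± 0.66) and the complex III gene Uqcr11 (-1.43 ± 0.72), all with adjusted p of at least 0.321. Ndufs6 read 12.13, 12.29 and 12.40 in cycling and 10.78 and 10.75 in S, a gap far wider than the spread within either group. Its SE was 0.73 with all 16 arrays and 0.13 without KO_G1 replicate 1 and Wt_cycling replicate 3. Without these 2 arrays, 43 of the 68 were called lower and none higher, where 11.7% of all genes were called lower. With the slide term the median was -0.04, and with that term and without the 2 arrays -0.56.

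Cytosolic ribosomal protein genes showed a like pattern, with no call among 53, a median of -0.49 and 39 lower without overlap, beside 29.2% of all genes. Rpl34 of the large subunit was at -1.26 ± 0.62 (adjusted p = 0.370), and the small-subunit genes Rps15, Rps26 and Fau at -1.08, -1.001 and -0.98. Without the 2 arrays that stand apart, 29 were called lower and 1 higher, beside 11.7% and 9.8% of all genes. With the slide term the median was -0.15. Among 32 genes of ribosome biogenesis none was called, the median was -0.12, 23 were negative and 15 lay lower without overlap. Without the 2 arrays, 5 were called lower and 3 higher, and with the slide term the median was 0.13. The largest differences were those of the nucleolar protein genes Nop56 (0.88 ± 0.22, adjusted p = 0.0651), Utp4 (0.63 ± 0.20), Nop14 (-0.60 ± 0.23) and Nop2 (0.58 ± 0.21).

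Signalling and antioxidant genes were called in small numbers. Of 32 immediate early and serum response genes, 2 rose, beside 1.2% of all genes called higher. Errfi1, a feedback inhibitor of the EGF receptor, read 10.94, 10.79 and 10.98 in cycling and 13.20 and 13.14 in S (2.27 ± 0.28, adjusted p = 0.000881). Dusp6, a phosphatase that switches off ERK, read 12.25, 12.32 and 12.37 against 13.32 and 13.24 (0.97 ± 0.22, adjusted p = 0.0394). Its dimmer probes were not called, at 1.33 ± 0.32 and 1.11 ± 0.41 (adjusted p = 0.0530 and 0.208). Of 25 Nrf2 targets and antioxidant genes, Srxn1 and Nqo1 rose, beside the same share of all genes. Srxn1, which repairs oxidised peroxiredoxins, read 9.46, 9.53 and 9.21 against 11.72 and 11.72 (2.32 ± 0.22, adjusted p = 0.000124). Nqo1, a quinone reductase, read 7.95, 7.86 and 7.57 against 9.59 and 9.65 (1.83 ± 0.39, adjusted p = 0.0305). The medians of these lists were 0.06 and 0.16, far below these rises.

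Inflammatory and interferon genes are given beside the macrophage markers, whose summed intensity among the compared arrays was highest in S and lowest in cycling replicate 3. Cxcl14, a chemokine of stromal cells, was the called gene of 29, at 9.15, 9.03 and 10.10 in cycling and 11.21 and 11.11 in S (1.73 ± 0.38, adjusted p = 0.0376). Unlike the macrophage markers, it was highest among the cycling arrays in replicate 3. A dimmer Cxcl14 probe was not called, at 1.23 ± 0.48 (adjusted p = 0.235). The list's median was 0.26, and 1.2% of all genes were called higher. None of 26 interferon response genes was called, and their median of 0.24 turned to -0.01 with the slide term. Rsad2 was at 1.11 ± 0.37, Ifit3 at 0.98 ± 0.55, Oasl2 at 0.98 ± 0.72 and Psmb10 at -0.97 ± 0.53, with adjusted p of at least 0.169. Oasl2 read 8.23, 8.16 and 6.24 in cycling and 8.53 and 8.52 in S, and only cycling replicate 3 lay far from the S arrays. The part of the macrophage marker difference in these values was not tested. Among the markers themselves, Mrc1 read 7.21, 7.25 and 5.64 against 9.16 and 9.33 (2.54 ± 1.501), Lyz2 12.72, 12.90 and 11.34 against 14.10 and 13.83 (1.64 ± 0.69) and Adgre1 10.51, 10.40 and 9.17 against 11.54 and 11.51 (1.496 ± 1.04). Fcer1g was on at 9.57 and 9.56 in cycling replicates 1 and 2 and at 9.74 and 9.58 in S, and was not detected in cycling replicate 3 at 4.32.

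The remaining lists held few calls, beside 1.2% of all genes called higher and 0.641% lower. Txnip, which binds thioredoxin and restrains glucose uptake, rose from 9.12, 8.87 and 9.26 to 10.53 and 10.40 (1.38 ± 0.28, adjusted p = 0.0269), as the called gene of 17 in the quiescence and FoxO list. Bhlhe40, a repressor in the circadian clock, fell from 12.63, 12.66 and 12.58 to 11.54 and 11.44 (-1.13 ± 0.26, adjusted p = 0.0437), the called gene of 14. None of 22 p53 targets was called, with the damage-response gene Gadd45a at -1.59 ± 0.42, the death receptor gene Fas at 1.09 ± 0.29, Trp53inp1 at 1.08 ± 0.33 and Ei24 at 0.85 ± 0.21 (adjusted p of 0.0570 to 0.127). None of 27 sterol and fatty acid synthesis genes was called, with a median of -0.32, the desaturase gene Fads2 at -1.17 ± 0.41 and the lanosterol synthase gene Lss at -1.08 ± 0.35. The farnesyl diphosphate synthase gene Fdps was at -1.03 ± 0.49 and the fatty acid elongase gene Elovl6 at -1.02 ± 0.28 (adjusted p = 0.0922).

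No gene was called among 16 DNA repair, 25 actin and contractile, 25 glycolysis and hypoxia, 27 lysosome and autophagy and 9 HMG protein genes. In DNA repair, the Ku70 gene Xrcc6 read 10.99, 11.05 and 10.74 in cycling and 10.10 and 10.10 in S (-0.83 ± 0.20, adjusted p = 0.0517), while the kinase gene Atm was at -0.87 ± 0.63 and Blm and Fancd2 at -0.61 and -0.48. The contractile genes Acta1, Myh11, Mylk and Actg2 were at -1.42, -1.05, -0.69 and -0.66, although the list's median of 0.03 lay near that of all genes and changed sign under 6 settings. The largest values in glycolysis and hypoxia were those of Ndrg1 (0.80), Pfkp (0.62), Pkm (0.60) and Tpi1 (-0.49). In the lysosome list, the sialidase gene Neu1 and the beta-galactosidase gene Glb1 were at -0.87 ± 0.29 and -0.70 ± 0.19, and Ctss and Hexa at 0.65 and 0.53. Hmgb2, a close relative of Hmgb1, read 8.35, 8.30 and 8.62 against 6.96 and 7.75 (-1.07 ± 0.56, adjusted p = 0.409), and Hmgn2, Hmga2 and Hmg20b were at -0.50, 0.36 and -0.31.

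**Figure D4:**
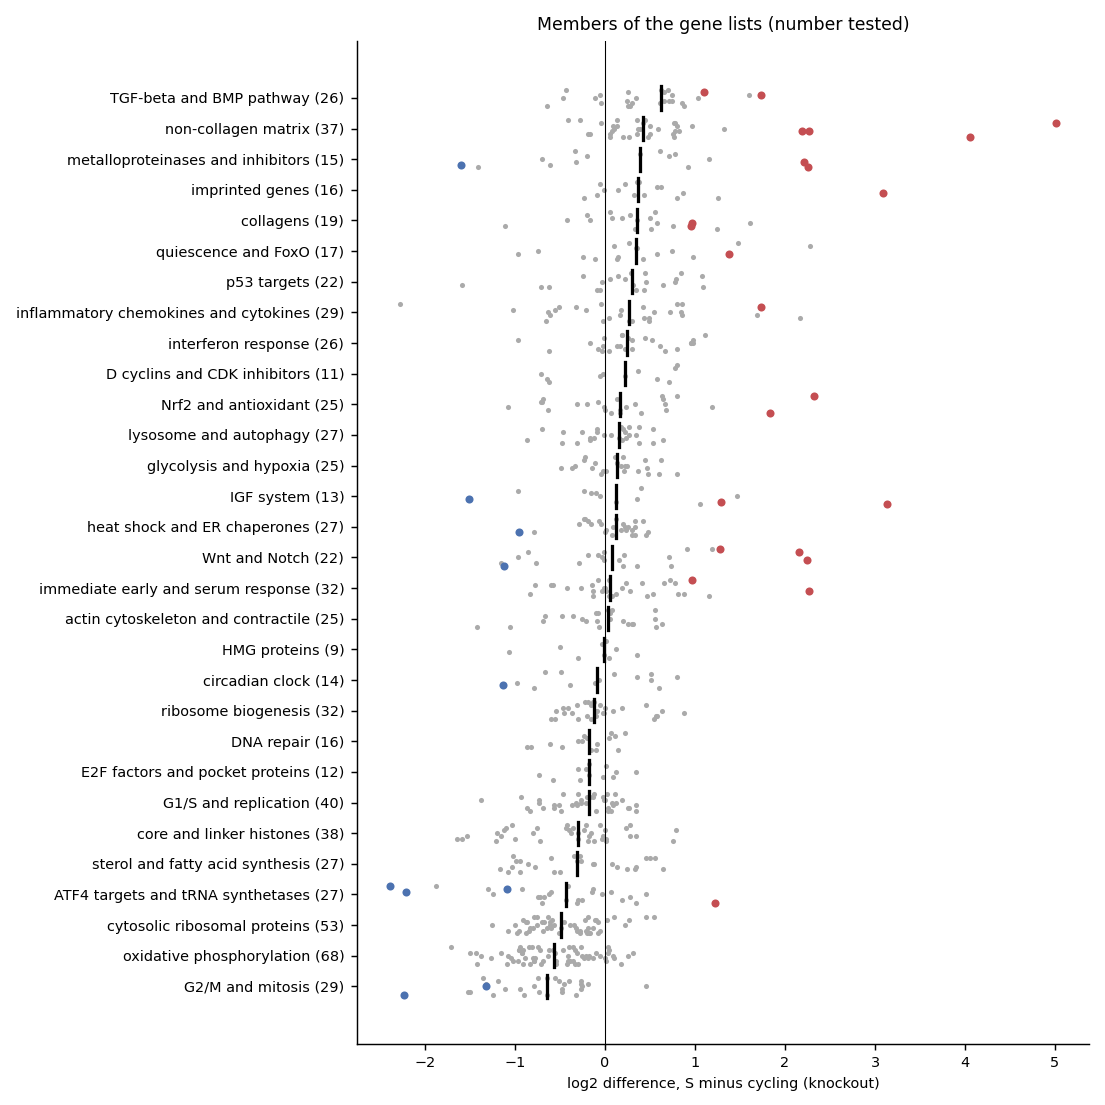
Log2 difference between KO_S and KO_cycling (horizontal axis) of every tested gene in 30 gene lists, 1 probe a gene, ordered by the list's median (black bar), with the number tested in parentheses. Grey points were not called, red points were called higher and blue points called lower; the G2/M list has the lowest median (-0.65) and the TGF-beta list the highest (0.62).

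The other genes among the largest falls encode surface, channel and signalling proteins. Cd69, a leukocyte activation antigen, read 9.56, 9.74 and 8.14 in cycling and 6.64 and 6.91 in S, a difference of -2.37 ± 0.45 (adjusted p = 0.0186), with cycling replicate 3 the lowest of its group. Kcnmb1, the beta subunit of a calcium-activated potassium channel of smooth muscle, read 8.84, 8.60 and 8.30 against 6.39 and 6.23 (-2.27 ± 0.35, adjusted p = 0.00519). Cacna2d1, a calcium channel subunit, read 9.41, 9.12 and 8.79 against 7.59 and 7.28 (-1.67 ± 0.34, adjusted p = 0.0269). On the G1 arrays Cacna2d1 read 9.46, 8.90 and 8.77 and Kcnmb1 5.51, 6.37 and 6.69. Nrg1, a ligand of ErbB receptors, read 9.19, 9.21 and 9.68 against 7.51 and 7.12 (-2.05 ± 0.34, adjusted p = 0.00938). Htr2b, a serotonin receptor, read 8.03, 7.91 and 7.12 against 6.15 and 6.01 (-1.61 ± 0.28, adjusted p = 0.0122).

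Gzmd, a granzyme protease, read 9.10, 9.08 and 8.64 in cycling and 6.85 and 6.84 in S (-2.09 ± 0.46, adjusted p = 0.0354). It lies among near-identical granzyme genes, so its probe may share targets. A dimmer Gzmd probe was not called, at -0.78 ± 0.26 (adjusted p = 0.168). Ccl17, a chemokine for T cells, read 6.23, 6.09 and 7.23 against 4.58 and 4.72 and was detected on no S array, at least 2.34-fold lower there (-1.87 ± 0.38, adjusted p = 0.0267). Cycling replicate 3 was highest for Ccl17 and lowest for Cd69 and Gzmd. The strongest fall of any probe belonged to ILMN_1225528, which has no gene symbol, from 11.22, 10.91 and 10.63 to 7.44 and 7.77 (-3.31 ± 0.37, adjusted p = 0.000529). ILMN_1254763, also without a symbol, was at 6.37, 6.37 and 6.39 in cycling and was detected on no S array, at least 2.12-fold lower (-1.43 ± 0.17, adjusted p = 0.000804).

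The rule for naming genes took 53 called probes, with both Dcn probes among them and other called probes of the same genes not counted. Of these 53, 14 were called in every fit that left out 1 of the 5 arrays, namely Lum, Itm2a, Mfap4, Serpinb2, Ecrg4, Fibcd1, Vgf, Errfi1, Timp3, Mmp3, Srxn1, Wnt2 and the unnamed probes ILMN_1225528 and ILMN_1254763. All of these but Errfi1 were also called with the slide term, which gave 13. The remaining 39 lost their call in at least 1 of those fits, among them every named gene that fell.

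Whether the change with phase differed between genotypes was tested against the 2 Wt_S and 3 Wt_cycling arrays. No probe was called for the difference by limma (0%), 560 had an unadjusted p under 0.05, and the smallest adjusted p was 0.110. With the authors' value table, or without background correction, 2 probes were called. In the wild type alone 298 probes were called between S and cycling (2.47%), 200 higher (1.66%) and 98 lower (0.811%). In both genotypes 97 probes were called in the same direction, 47.1% of the knockout calls and 32.6% of the wild-type calls. The wild-type difference had the same sign for 201 of the 206 knockout calls (97.6%), beside 62.6% of all tested probes. Wild-type S and cycling arrays lay on different slides too, so slide and phase cannot be told apart there either.

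Many named genes had close values in both genotypes. The difference for Lum was 4.62 ± 0.46 in Wt beside 5.01 in KO, for Mfap4 3.58 ± 0.33 beside 4.05, for Wnt2 2.08 ± 0.27 beside 2.16, for Notch3 1.25 ± 0.25 beside 1.28 and for Mthfd2 -1.16 ± 0.26 beside -1.09. Other genes were further apart without passing the test. Fibcd1 rose by 4.57 ± 0.27 in Wt, and the effect in KO minus that in Wt was -1.56 ± 0.38 (unadjusted p = 0.00115, adjusted p = 0.865). Ccl17, at -0.04 ± 0.38 in Wt, gave -1.82 ± 0.54 (unadjusted p = 0.00442, adjusted p = 0.899). Chac1, at -0.76 ± 0.40 in Wt, gave -1.46 ± 0.56 (unadjusted p = 0.0208, adjusted p = 0.899). These 3 differences did not pass the test.

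**Figure D5:**
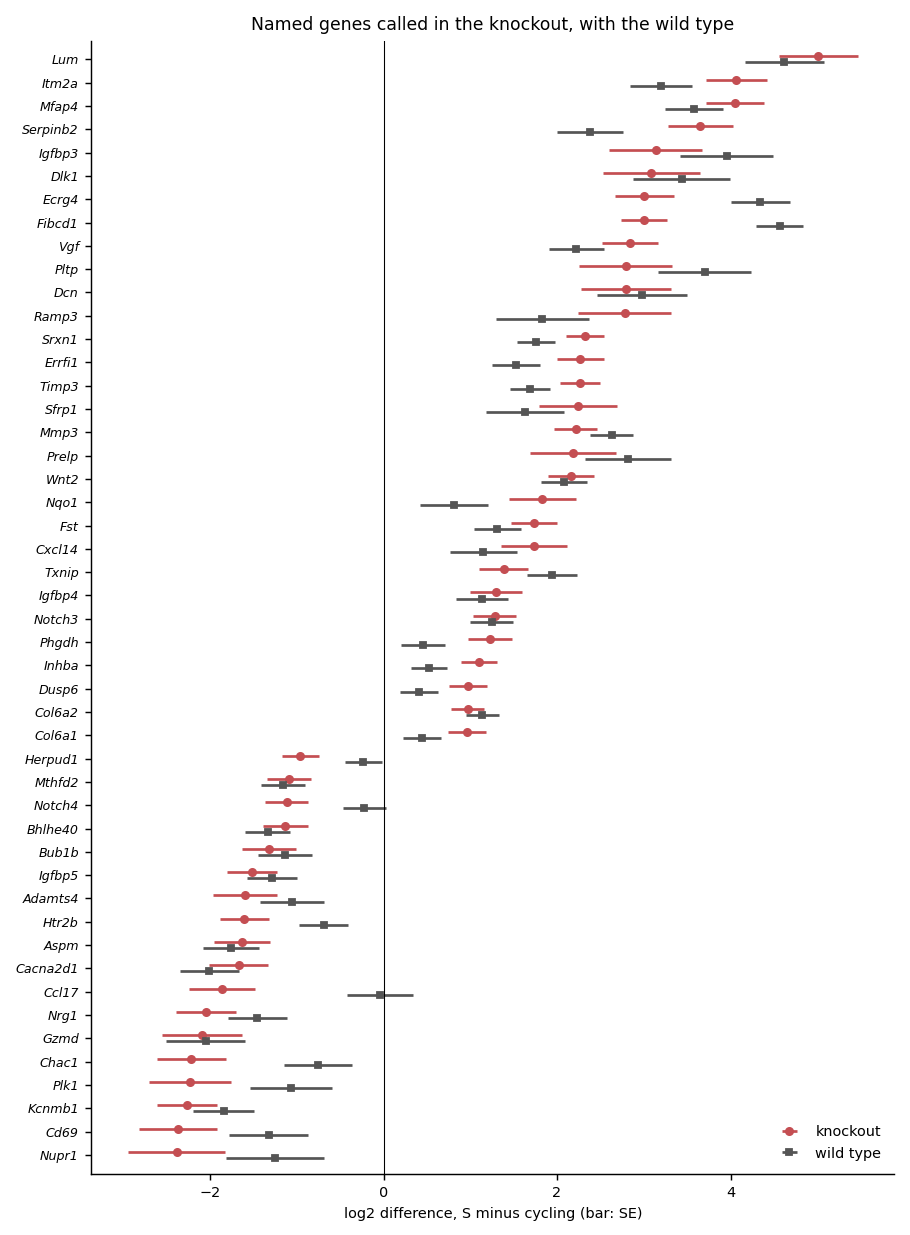
Log2 difference between S and cycling (horizontal axis, bars are 1 SE) in knockout (red circles, 2 against 3 arrays) and wild-type fibroblasts (grey squares, 2 against 3 arrays) for the named genes called in the knockout. All knockout and wild-type values of these genes have the same sign; Ccl17, at -1.87 and -0.04, and Chac1, at -2.22 and -0.76, are among the genes furthest apart.

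The count of 0 for the difference between genotypes changed when Wt_cycling replicate 3 and KO_G1 replicate 1 were left out. Without both, 69 probes were called for the difference between genotypes, 10 with a higher and 59 with a lower effect in KO. These were 0.571% of all probes, with 0.0828% higher and 0.488% lower. The lower ones held 12 of the 68 oxidative phosphorylation genes and 7 of the 38 histone genes, beside 0.558% of all genes. All 7 were H2A genes, whose probes may share targets, so they may not be 7 separate measurements. Uqcr11 was then at -1.43 in KO and -0.17 in Wt (difference -1.25 ± 0.17, adjusted p = 0.0267) and H2ac22 at -1.65 and 0.48 (difference -2.14 ± 0.25, adjusted p = 0.0252). The neutrophil chemokine gene Cxcl15 was at 1.72 in KO and at 5.20 in Wt, a difference of -3.48 ± 0.39 (adjusted p = 0.0252). Chac1 gave -1.47 ± 0.22 and Herpud1 -0.83 ± 0.16 (adjusted p of 0.0267 and 0.0493). Among those with a higher effect in KO were the gap junction gene Gjb2, at 2.41 in KO and 0.92 in Wt, the clock gene Per3, at 0.80 and -0.51, and the ligand gene Wnt5a, at 0.35 and -0.74. These genes, apart from the histone, Uqcr11, Chac1 and Herpud1, were named after their values were seen. Leaving out Wt_cycling replicate 3 alone gave 1 call.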

How the data were processed

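The deposited intensity values are average bead signals per probe from BeadStudio 3.0, per the submitters' processing notes, with no normalization in the table used, and each has a detection p-value in the deposited file. The authors' value table, also deposited, holds linear intensity with array medians of 118.12 to 118.37 and served as an alternative. Of 25697 probes, 23978 had 1 gene symbol and 1719 none. With limma 3.58.1 in R 4.3.3, intensities were background-corrected (normexp from detection p-values, offset 16), quantile-normalized and put on the log2 scale.

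A probe was tested if some group (of 6) had it detected, at a detection p under 0.01, on all its arrays. These 12078 probes entered 1 linear model of 6 group means over 16 arrays, with 10 residual degrees of freedom, moderated tests and Benjamini-Hochberg adjustment over all of them. A probe with adjusted p under 0.05 was called. Gene lists used the brightest probe a gene. The pipeline was tested on simulated data. An "at least" fold used each array's lowest signal of a detected probe as floor.

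The genes named were the 12 largest called rises and falls without overlap, up to 2 unnamed probes each way, of each list the called members or else the 4 largest, and fixed cell cycle genes. The comparison, lists and alternatives were chosen with earlier results of these data known. Promoters came from RefSeq. Alternatives covered normalization, background, dim-probe filters, slide, replicate number, array weights and arrays left out.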

Additional observations from a re-analysis of the deposited data

How the results depend on the processing

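Of the settings tried for KO_S against KO_cycling, filters on dim probes gave 186 to 235 calls, the values processed by the authors 257, no background correction 272 and slide as a random block 180, beside 206. Other settings moved the count by more than 1.5 times: median scaling gave 82 (71 higher, 11 lower), the 8 KO arrays alone 48 (40 and 8), slide as a fixed term 20 (18 and 2), the 5 arrays alone 2595 (1248 and 1347), omission of the 2 arrays that stand apart 2466 (1172 and 1294) and array weights 4645 (2416 and 2229). The slide term without those 2 arrays, chosen after seeing the data, gave 564 (262 and 302), with 140 of the 206 among them. Leaving out 1 array gave 19 to 86 calls, 17 to 68 higher and 2 to 18 lower. The replicate number as a fixed replicate block on the 5 arrays gave 3106 (1602 and 1504), and as a random block over 16 arrays 202. The difference between replicates 1 and 2 in KO_cycling correlated at -0.005 with that in KO_S. This single comparison cannot decide whether the numbers mark the same embryos, and the labels do not say. For the difference between genotypes, beside 0, the authors' table and no background correction gave 2 each, omission of the 2 arrays 69, array weights 1868, and the slide term without those arrays 42. Leaving out 1 array gave 0 to 1. The cause of these changes was not tested beyond the arrays and terms named.

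None of the 53 called probes taken by the naming rule changed sign under these settings, and of their values 740 kept the call and 310 missed the threshold. Their S and cycling arrays did not overlap, so leaving out 1 compared array could not change a sign. Fits that left out only other arrays had the same log2 differences, so the kept sign is no check there. Of uncalled named genes, 237 values passed it under another setting and 16 changed sign. Ccne1 ranged from -0.15 to 0.18 when 1 array was left out, with the lowest value without KO_cycling replicate 2, and was at -0.0029 without KO_S replicate 2. With the slide term Cdk1 was at 0.23, Cdkn1c at -0.0885, Rrm2 at 0.34, Eif2s3y at -0.70, E2f5 at 0.14, Actg2 at 0.0504, Ifit3 at -0.16, Tpi1 at 0.0687, Hexa at -0.0358, Hmgn2 at 0.0102 and Hmg20b at 0.34. With it and without the 2 arrays, Rrm2 was at 0.14, E2f5 at 0.0191 and Hmg20b at 0.13. Signal limits the dim genes: 16 called probes were detected on no cycling array and 3 on no S array, and their fitted differences depend on the background.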

Other observations

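The genes below were called, lie outside the described lists and were picked after their values were seen, so they describe single genes and not their pathways. Ptn, a heparin-binding growth factor, read 11.10, 11.10 and 10.31 in cycling and 13.06 and 13.09 in S (2.24 ± 0.32, limma adjusted p = 0.00346). Fgf10, a ligand from mesenchyme to epithelium, rose by 1.54 ± 0.35 (adjusted p = 0.0461) and Esm1, a secreted proteoglycan, by 2.61 ± 0.25 (adjusted p = 0.000124). The EGF receptor ligand Btc and the vasoconstrictor Edn2 were detected on no cycling array and were at least 2.86-fold and at least 3.37-fold higher in S. The prostaglandin E synthase gene Ptges rose by 1.61, the prostacyclin synthase Ptgis by 1.22 and the prostaglandin transporter Slco2a1 by 1.11. Cish and Socs2, feedback inhibitors of cytokine receptors, rose by 1.86 and 1.65. The hyaluronan receptor gene Cd44 rose by 1.37, the hyaluronidase gene Hyal1 by 1.66 and the matrix protein gene Ptx3 by 1.66. Gfpt2 and Uap1 of the hexosamine pathway rose by 1.27 and 1.41. The water channel Aqp1 rose by 2.73, the gap junction gene Gjb2 by 2.41 and the lipid phosphatase gene Plpp1 by 1.27.

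Other genes picked in the same way fell. Foxm1, a transcription factor of mitotic genes, read 7.11, 7.23 and 7.56 in cycling and 5.86 and 6.26 in S, a difference of -1.24 ± 0.28 (limma adjusted p = 0.0435). Lmnb1, which encodes lamin B1 of the nuclear envelope, read 10.49, 10.53 and 10.49 against 9.52 and 9.57 (-0.96 ± 0.20, adjusted p = 0.0269), and its difference was 0.03 in Wt. The effect in KO minus that in Wt, -0.99 ± 0.28, did not pass the test (adjusted p = 0.899). The histone chaperone Nasp was at -0.79 and the centromere protein Cenpp at -1.34. Tcof1, needed for ribosomal RNA transcription, and Tfb1m, which modifies mitochondrial ribosomal RNA, were at -1.29 and -1.28. Vars, the valyl-tRNA synthetase, Aldh18a1 of proline synthesis, the folate enzyme Aldh1l2 and the glycine transporter Slc6a9 were at -1.25, -0.81, -1.45 and -1.27. The transcription factor genes Bach1, Zfhx3 and Nfic were at -1.11, -1.15 and -1.21.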
